A study of Mus musculus with 4 samples.

Results

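The lysosome genes described here are 39 of the 32285 genes listed for live CD11b+ myeloid-derived suppressor cells (MDSCs) grown in vitro. They were chosen by name: the genes whose symbols start with Atp6v0 or Atp6v1 (the subunits of the vacuolar ATPase, and Atp6v1fnb, which is a neighbour of Atp6v1f and no subunit), the 9 cathepsins Ctsa, Ctsb, Ctsc, Ctsd, Ctsh, Ctsk, Ctsl, Ctss and Ctsz, the hexosaminidase gene Hexa, the membrane glycoproteins Lamp1 and Lamp2, the transcription factors Mitf, Tfeb and Tfe3, and Gpnmb. The choice was made with earlier results of these data known. The cells came from mouse bone marrow kept for 4 days in GM-CSF and IL-6, both at 40 ng/ml, and their RNA was counted cell by cell on the 10X Genomics platform. The libraries described are WT without isoproterenol (WT+PBS) and WT with 10 µM isoproterenol, a pan-β-adrenergic agonist (WT+ISO), with 1 library each. The cytokines and the CD11b sort were common to both, and the mice were C57BL/6. The methods give an age of 6 to 10 weeks for the study's mice, without saying which animals, or how many, were behind each culture.

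The vacuolar ATPase is the proton pump that acidifies lysosomes. Its V0 part is a ring in the membrane that carries protons, its V1 part hydrolyses ATP in the cytosol, and several subunits exist in alternative forms encoded by separate genes. Cathepsins are the proteases that work in the acidified lumen, hexosaminidases remove sugars from glycolipids, and the LAMP proteins coat the inner face of the lysosomal membrane. Mitf, Tfeb and Tfe3 belong to the MiT/TFE family, which activates lysosomal genes through a palindromic E-box known as the CLEAR element. Gpnmb is a transmembrane glycoprotein of lysosomes and melanosomes, known as a MiT/TFE target and as a marker of macrophages with loaded lysosomes.

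Promoter sequences (250 bases before to 50 bases after the start site, RefSeq, GRCm38.p6, the assembly that mm10 stands for) were matched by symbol for 31 of the 39 genes. None was matched for Atp6v0a2, Atp6v0d2, Atp6v1b2, Atp6v1c1, Atp6v1g1, Atp6v1h, Ctsb and Ctsh, which were therefore not searched. Both strands were searched for TCACGTGA, the core of the CLEAR element. It was found in 5 of the 31 genes with a promoter (16.1%), against 1.12% of all 27025 genes and 0.974% of all 32851 promoters of the same length. The stretches that hold it are shown in the direction of transcription, with the core in capitals, because they are the binding sequence of the factors measured below.
Atp6v0d1 (V0 subunit d1, chr8:105566053-105566112, minus strand): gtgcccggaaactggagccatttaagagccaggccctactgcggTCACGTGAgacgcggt
Atp6v0e (V0 subunit e1, chr17:26676348-26676407, plus strand): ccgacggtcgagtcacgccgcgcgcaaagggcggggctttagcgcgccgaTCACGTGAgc
Atp6v1a (V1 catalytic subunit A, chr16:44139358-44139417, minus strand): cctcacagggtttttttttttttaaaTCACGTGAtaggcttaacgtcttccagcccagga
Ctsa (cathepsin A, chr2:164833725-164833784, plus strand): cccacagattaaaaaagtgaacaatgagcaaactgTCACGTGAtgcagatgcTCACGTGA
Ctsd (cathepsin D, chr7:142387893-142387952, minus strand): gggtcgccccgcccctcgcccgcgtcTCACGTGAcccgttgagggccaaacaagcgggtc
Ctsa held 2 copies of the core, the first beginning 13 bases before the start site of its window. In Atp6v1a and Ctsd the core began 132 and 99 bases before the start sites of theirs. The 31 genes had 40 windows, since some have several start sites. The stretches of Ctsa and Atp6v1a lie inside their genes, which begin at chr2:164832872 and, on the minus strand, at chr16:44139702. These 2 windows thus belong to inner start sites. The shorter E-box CACGTG, which TCACGTGA contains, was found in 8 of the 31 genes (25.8%, against 8.09% of all genes), adding Atp6v0b, Ctsl and Lamp1. The M-box letters TCATGTG, another sequence bound by Mitf, were found in Atp6v0c, Ctsa and Ctss (9.68%, against 4.31% of all genes). Of these 3 sequences none was found in the Gpnmb window, whose 90 bases before the start site are shown because several of the results below turn on Gpnmb.
Gpnmb (chr6:49036428-49036517, plus strand): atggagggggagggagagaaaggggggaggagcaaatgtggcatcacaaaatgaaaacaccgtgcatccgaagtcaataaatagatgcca
A match of letters is a description of the window and not of binding, which was not measured.

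After cells with under 200 genes or over 10% mitochondrial UMIs were left out, 2210 cells of WT+PBS and 2264 of WT+ISO remained, with 24393687 and 29400468 unique molecular identifiers (UMIs) and medians of 8089 and 10252 UMIs a cell. Levels are UMIs per 1000000 UMIs of the library or cluster (CPM). Each group was 1 library, so no difference could be tested, and every 95% interval (exact Poisson for a level, exact conditional binomial for a ratio, exact binomial for a share) covers counting error only and not the spread between cultures. No cell barcode was shared between libraries (0). Itgam, which encodes CD11b, was at 336 CPM in WT+PBS and 290.0 CPM in WT+ISO. Xist was at 387 and 360.1 CPM and the Y-linked Ddx3y had 7 UMIs in each, so that neither library stood apart in sex.

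Of the 39 lysosome genes, 32 reached 50 UMIs in the WT pair. The other 7 were alternative subunit forms and Atp6v1fnb. Atp6v1b1, Atp6v1e2, Atp6v0a4, Atp6v0e2 and Atp6v1fnb had 0 UMIs in both libraries, Atp6v1g3 had 1 and Atp6v1c2 had 4. The pump as a whole varied little: its 22 genes summed to 3550 CPM in WT+PBS and 3448 CPM in WT+ISO. The 9 cathepsins summed to 2242 and 1900 CPM in the same order, the LAMP genes to 485 and 518 CPM and the MiT/TFE factors to 145 and 110.2 CPM. Hexa, an enzyme that removes sugars from gangliosides, was at 145 and 143 CPM. Between the libraries, 14 of 16 pump genes and 5 of 9 cathepsins differed by less than 1.25-fold, as did 78.3% of all 11852 genes with 50 UMIs. The widest ranges were those of Atp6v0d2 (2.43-fold), Ctss (1.71-fold), Ctsc (1.49-fold), Mitf (1.49-fold) and Ctsk (1.48-fold).

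**Figure D1:**
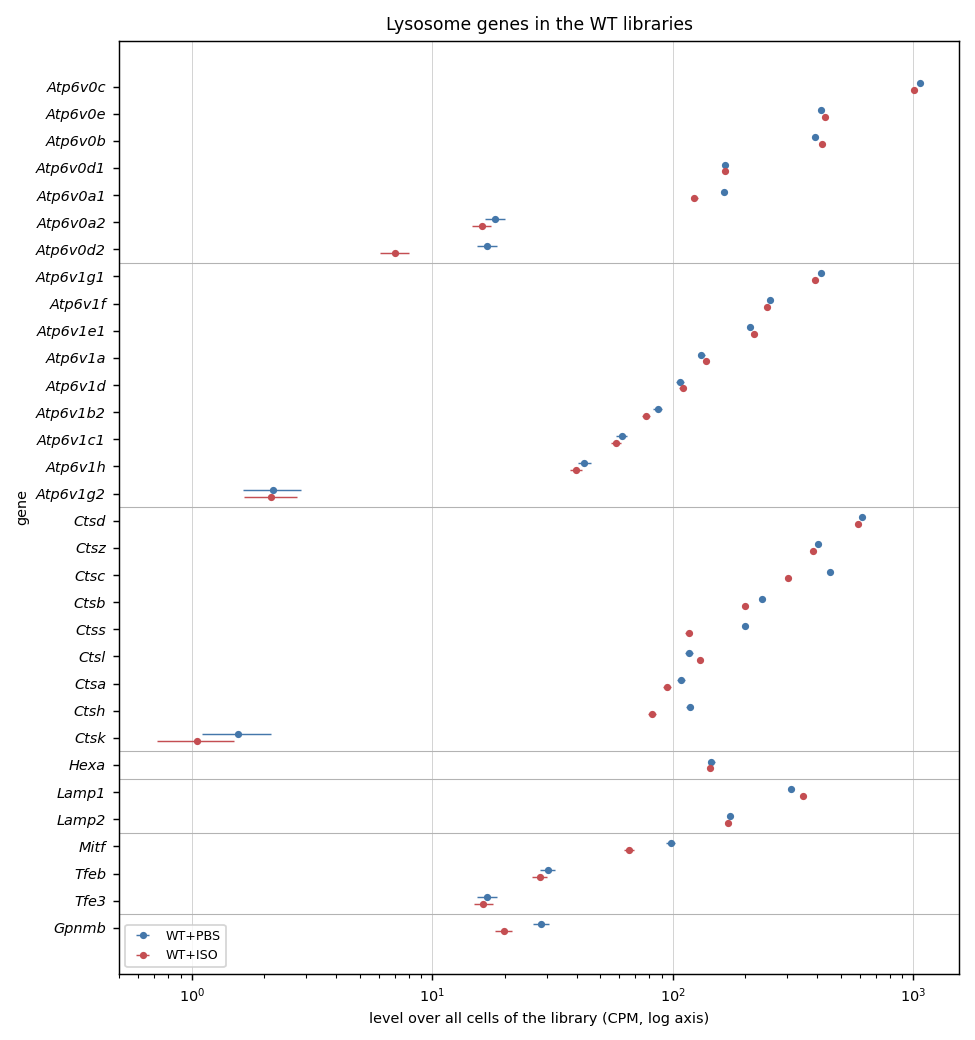
Level of the 32 lysosome genes with at least 50 UMIs in the WT pair, in CPM on a log axis, with 1 point a library and exact 95% Poisson intervals (counting error only). Most pump genes lie at nearly the same level in both libraries, whereas Atp6v0d2 runs from 6.97 CPM in WT+ISO to 16.9 CPM in WT+PBS.

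The 9303 cells kept over the whole series fell into 7 clusters at Leiden resolution 0.4, made without the lysosome genes, so that the genes described here did not shape them. Cluster 2 was azurophil-granule neutrophil progenitor-like (1611 cells, with Mpo and Elane among its leading genes), cluster 0 specific-granule neutrophil-like (1719 cells, with Ltf) and cluster 4 mature neutrophil-like (1435 cells, with Retnlg and Cxcr2). Cluster 5 was macrophage-like (1179 cells, with C1qb and Mrc1) and cluster 6 migratory dendritic cell-like (101 cells, with Ccr7). Cluster 3 (1601 cells, with Matn2) and cluster 1 (1657 cells) stay unnamed. Cluster 1 was poor in RNA, with a median of 2867 UMIs a cell, 0.348 of that of the cells' own libraries. Its leading genes by fold were Gpnmb and Atp6v0d2. Against all other cells, the mean log2 ratio was -2.89 for its macrophage markers and -1.30 for its monocyte markers. For the 5 mature neutrophil markers it was 1.13, with 4 found in at least 10% of its cells but none among its leading genes. Because of its size, cluster 6 is left out of the comparisons between and within clusters, where highest and lowest mean among clusters 0 to 5. It was above all of these for some genes, such as Ctss (707 CPM) and Ctsh (294 CPM). The ratios at fixed weights, described below, do include it.

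In the WT libraries most lysosome genes had their highest level, as a share of the cluster's UMIs, in cluster 1. Of the 31 genes with at least 100 UMIs, 18 were highest in cluster 1 and 10 in cluster 5, against 25.8% and 26.8% of the 10771 genes with as many UMIs, so that the count for cluster 5 was near that of all genes. The progenitor-like cluster 2 was the lowest for 19 of the 31, against 21.7% of all genes (ties included). All 39 genes summed to 11406 CPM in cluster 1, 9742 CPM in cluster 5 and 4405 CPM in cluster 2. These levels are not amounts per cell, and cluster 1 is poor in RNA. In WT+PBS the 39 genes had 24125 UMIs in 545 cells of cluster 1. They had 34328 UMIs in 238 cells of cluster 5 and 29846 UMIs in 380 cells of cluster 2. Per cell, cluster 1 thus held fewer of these UMIs than clusters 5 and 2.

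**Figure D2:**
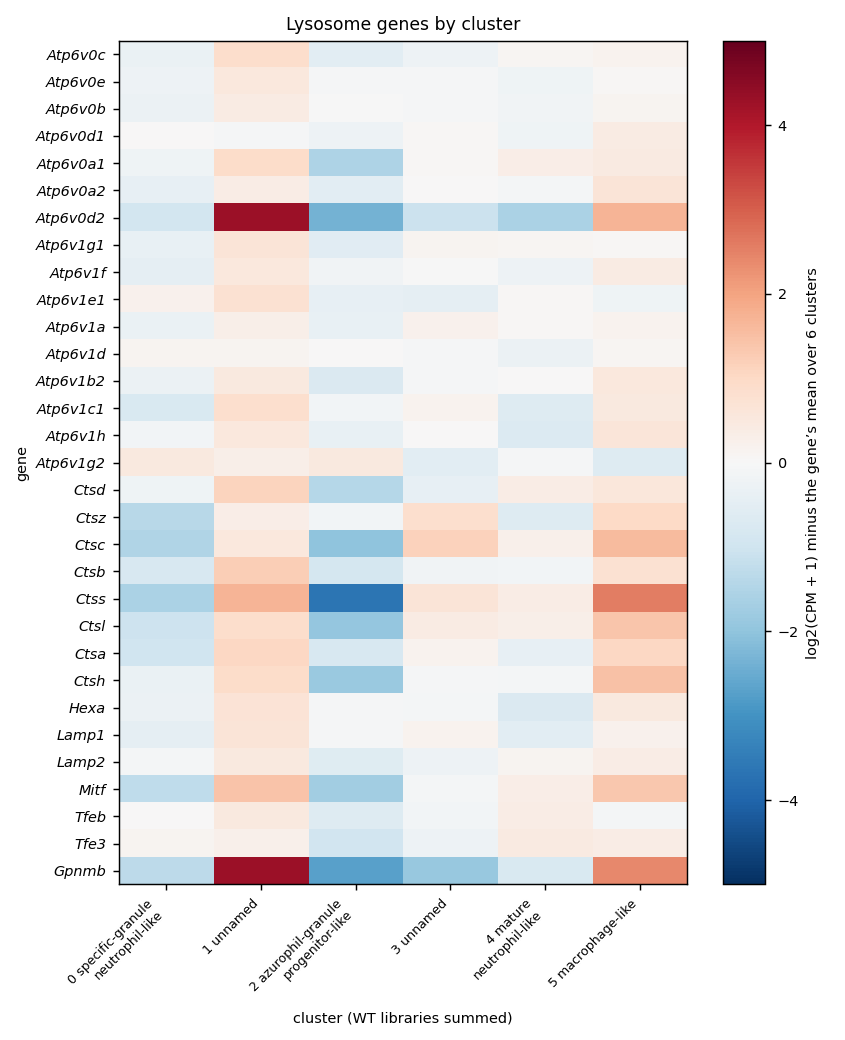
Level of each lysosome gene with at least 100 UMIs in clusters 0 to 5, as log2(CPM + 1) of the WT libraries summed, minus the gene's mean over the 6 clusters, red above and blue below that mean. Gpnmb and Atp6v0d2 stand out in cluster 1, Ctss in cluster 5, and cluster 2 is low for most cathepsins and for Mitf.

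Among the pump genes the most even was Atp6v1d, a stalk subunit, with a highest cluster 1.37-fold over its lowest. Atp6v0c, the proteolipid that forms the proton-carrying ring, was at 2174 CPM in cluster 1 and 806 CPM in cluster 2. The pump genes summed to 6010 CPM in cluster 1, 4243 CPM in cluster 5 and 2897 CPM in cluster 2, a 2.07-fold range. The alternative forms differed in range, from 1.60-fold for Atp6v0d1 upwards, and those with the widest ranges are described next. Atp6v0d2, the d2 form of the stalk subunit, which is known from osteoclasts and macrophages, was at 126 CPM in cluster 1, 20.3 CPM in cluster 5 and 0.27 CPM in cluster 2 (5 UMIs). It gave 43.6% (95% interval 40.5 to 46.8) of the UMIs of both d forms in cluster 1, 8.34% (6.97 to 9.89) in cluster 5 and 0.191% to 1.46% in the other 4 clusters. Since genes may be captured with unequal efficiency, such a share can be compared between clusters but not read as a ratio of proteins. Atp6v0a1, the a1 form of the large membrane subunit, was at 302 CPM in cluster 1 and 54.2 CPM in cluster 2. In cluster 2 its a3 counterpart Tcirg1, which the choice by name leaves out, gave 48.7% (46.7 to 50.7) of the a-subunit UMIs, against 12.1% to 23.4% in the other clusters. Atp6v1g2, a G form known from neurons, was sparse, with 5 UMIs (0.841 CPM) in cluster 5 and 57 UMIs (3.04 CPM) in cluster 2.

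The cathepsins ranged further between clusters than the pump and summed to 4341 CPM in cluster 5, 3879 CPM in cluster 1 and 877 CPM in cluster 2. Ctss, the protease that trims the invariant chain of MHC class II, was at 587 CPM in cluster 5, 319.7 CPM in cluster 1 and 6.84 CPM in cluster 2, an 85.9-fold range. Cluster 5 held 42.1% of its UMIs and 11.1% of all UMIs. Ctsc, which activates the serine proteases of neutrophil granules, was at 865 CPM in cluster 5, 635 CPM in cluster 3 and 69.3 CPM in cluster 2, where those proteases are made. Ctsh, an aminopeptidase, reached 276 CPM in cluster 5 and 26.8 CPM in cluster 2. Ctsl was at 314 CPM in cluster 5, 225 CPM in cluster 1 and 31.1 CPM in cluster 2. Ctsd, the main aspartic protease of lysosomes, had its highest level in cluster 1 with 1576 CPM, followed by 1063 CPM in cluster 5 and 269.8 CPM in cluster 2. Ctsa, a carboxypeptidase that also protects other lysosomal enzymes, was nearly level in clusters 5 and 1 (209 and 208 CPM) and lowest in cluster 0 (49.5 CPM). Ctsz, a carboxypeptidase, was highest in clusters 5 and 3 (623 and 558 CPM) and lowest in cluster 0 (118 CPM). Ctsk, the collagen-degrading cathepsin of osteoclasts, had 69 UMIs in all and reached 4.34 CPM in cluster 1. Ctsk and Ctss are neighbours on chromosome 3, 17398 bases apart (GRCm38.p6), but Ctss was highest in cluster 5 and Ctsk in cluster 1, where its libraries overlapped those of cluster 5. Ctsb had a 4.27-fold range, with 553 CPM in cluster 1 and 129.7 CPM in cluster 2.

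Because Atp6v0d2 and Ctsk are genes of osteoclasts, 6 osteoclast markers were read beside them. Dcstamp was at 71.5 CPM and Ocstamp at 1.68 CPM in cluster 5, but in cluster 1 they had 3 and 0 UMIs. Calcr had 1 UMI in all and Oscar at most 6 UMIs in any of clusters 0 to 5. Acp5 was at 6.57 CPM in cluster 2, 5.72 CPM in cluster 5 and 2.02 CPM in cluster 1. Nfatc1, an osteoclast transcription factor, was at 41.4 CPM in cluster 5 and 36.4 CPM in cluster 1. The 6 markers summed to 46.1 CPM in WT+PBS and 31.5 CPM in WT+ISO. The cluster highest in Atp6v0d2 was thus not the one highest in the fusion genes Dcstamp and Ocstamp.

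Hexa was highest in cluster 1 (233 CPM) and lowest in cluster 4 (87.1 CPM). Lamp1 was at 499 CPM in cluster 1, 378 CPM in cluster 5 and 225 CPM in cluster 4, and Lamp2 at 271 CPM in cluster 1 and 126 CPM in cluster 2.

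Of the transcription factors, Mitf had the steepest pattern. It was at 223 CPM in cluster 1, 212 CPM in cluster 5 and 24.5 CPM in cluster 2, a 9.13-fold range, and the libraries of clusters 1 and 5 overlapped. Tfeb ranged from 46.5 CPM in cluster 1 to 21.0 CPM in cluster 2 (2.22-fold), and Tfe3 from 26.7 CPM in cluster 4 to 9.51 CPM in cluster 2 (2.81-fold). All 3 factors were thus lowest, in CPM, in the progenitor-like cluster.

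Gpnmb was at 219.95 CPM in cluster 1, 59.0 CPM in cluster 5 and at most 5.57 CPM in clusters 0, 2, 3 and 4. Cluster 1 held 59.6% of its UMIs and 6.43% of all UMIs. The UMIs came from few cells. When cells were thinned to 2000 UMIs, 13.7% (95% interval 10.5 to 17.4) of 410 cells of cluster 1 held a Gpnmb UMI in WT+PBS and 15.4% (10.8 to 21.0) of 208 in WT+ISO. The thinning left out 135 and 99 shallower cells of cluster 1, and unthinned the shares were 16.5% and 17.6%. In the progenitor-like cluster 2, taken as the level of stray RNA, the thinned shares were 0% of 378 cells, which allows up to 0.971%, and 0.164% of 609. Unthinned they were 1.32% and 1.31%. Thinning takes more UMIs from a deeper cell, so the thinned shares of cluster 2 can understate stray RNA. Without and with ISO, the median cell of cluster 2 held 17102 and 17521 UMIs, and that of cluster 1 held 3091 and 3383. Cluster 1 thus stood above cluster 2 in both libraries, thinned or not, and the intervals of its thinned shares overlapped between the libraries. Of all Gpnmb UMIs, 25.0% without ISO and 29.7% with it lay in the 5 richest cells of the library, so that its UMIs are not independent and its intervals are too narrow.

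Over 12 sums of clusters 0 to 5 in the WT libraries, the genes whose log2(CPM + 1) followed Gpnmb most closely were Sfi1 (Pearson's r = 0.973), Lhfpl2 (0.955), Kansl1 (0.954), 9930021J03Rik (0.952), Npc1 (0.951), Gripap1 (0.949), Igf2r (0.948), Ano6 (0.947), Unc93b1 (0.946) and Ddhd1 (0.945). Npc1, the cholesterol exporter of lysosomes, and Igf2r, a mannose 6-phosphate receptor, are lysosome genes outside the choice by name. Among 10771 genes Atp6v0d2 came at rank 25 (0.933), Ctsb at rank 26 (0.933) and Atp6v0c at rank 43 (0.922). Ctsd (0.872) followed at rank 193, Lamp2 at rank 280 and Atp6v1b2 at rank 342. Mitf, the factor known to drive Gpnmb, was at rank 390 (0.839). Other lysosome genes came far lower, such as Ctsz at rank 4218 (0.403), Atp6v1d at 5260 (0.276) and Atp6v1g2 at 9026 (-0.20). The sums share their libraries and clusters, so these values describe the pattern and carry no test.

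The shares of WT cells in these clusters differed between the libraries, with 1 library a group. The study, with clusters of its own, describes the cluster frequencies as similar between treatment groups. Cluster 1 went from 24.7% to 13.6% of cells, cluster 5 from 10.8% to 5.70% and cluster 2 from 17.2% to 27.0%. The 6 macrophage markers summed to 140.3 CPM in WT+PBS and 59.1 CPM in WT+ISO, with none of the 6 at 0 in both libraries. The 6 dendritic cell markers summed to 926 and 308 CPM, and the 4 eosinophil markers to 56.4 and 3.03 CPM. Neutrophil markers were higher with ISO: the azurophil-granule list summed to 4162 and 5440 CPM, the specific-granule list to 14523 and 21096 CPM and the mature list to 798 and 1108 CPM. The monocyte list was nearly level, at 1620 and 1602 CPM. The part of these cells in the ratios below was not tested. Since the lysosome genes are unevenly spread over the clusters, each ratio is given over all cells and again with the clusters held at the same share of UMIs in both libraries (fixed weights).

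**Figure D3:**
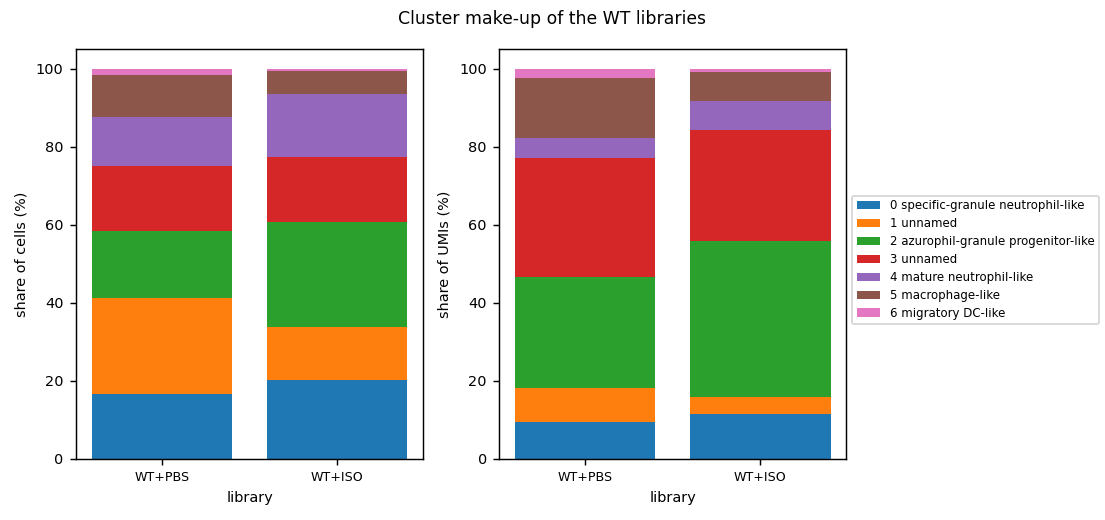
Share of cells (left) and of UMIs (right) of each cluster in the WT libraries, in percent, stacked to 100. The unnamed cluster 1 and the macrophage-like cluster 5, where the summed lysosome genes are highest in CPM, take smaller shares in WT+ISO than in WT+PBS. The progenitor-like cluster 2 takes a larger one.

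Over all cells, the pump was nearly level between WT+ISO and WT+PBS, and the summed cathepsins were lower with ISO. In sums over cells, fewer cells of a type and less RNA per cell cannot be told apart. No lysosome gene was at least 1.5-fold higher with ISO in WT and 2 of 32 were at least 1.5-fold lower. Among all 11852 genes 1.66% were higher and 6.82% lower, so that both counts were near the shares of all genes. The median log2 ratio of the 32 genes was -0.078, against -0.019 for all genes, and 7 of the 32 lay above 0 (21.9%, against 46.6% of all genes). The summed pump genes had a log2 ratio of -0.042 (95% interval -0.055 to -0.029), which became 0.00035 when the 20 most abundant genes were left out of the totals, and the summed cathepsins of -0.24 (-0.26 to -0.22). The V0 genes Atp6v0b, Atp6v0c, Atp6v0d1 and Atp6v0e lay between -0.086 and 0.093.

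The lower genes were Ctss and Atp6v0d2. Ctss was at 200 CPM in WT+PBS and 117 CPM in WT+ISO (log2 ratio -0.78, -0.84 to -0.71). Atp6v0d2 was at 16.9 CPM in WT+PBS and 6.97 CPM in WT+ISO (-1.28, -1.53 to -1.03). These are the 2 genes that passed 1.5-fold, both on the lower side. Ctsc was at 449 CPM without and 301 CPM with ISO (-0.58, -0.62 to -0.54). Mitf was at 98.0 and 65.9 CPM (-0.57, -0.66 to -0.49), and Ctsh at 118 and 82.2 CPM (-0.52, -0.60 to -0.44). All 3 stopped just short of 1.5-fold. Gpnmb was at 28.4 CPM in WT+PBS (692 UMIs in 138 cells) and 19.9 CPM in WT+ISO (585 UMIs in 123 cells), with a log2 ratio of -0.51 (-0.67 to -0.35). The Gpnmb ratio depended on the weighting, at -1.29 with equal weight per cell and 0.67 at fixed cluster weights. Atp6v0a1 was at 164 and 123 CPM (-0.41, -0.48 to -0.35). Ctsk was at 1.56 and 1.05 CPM, with an interval across 0 on 38 and 31 UMIs (-0.56, -1.30 to 0.16).

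The other genes moved less. Ctsl was the cathepsin above 0, at 117 CPM in WT+PBS and 129.96 CPM in WT+ISO (log2 ratio 0.15, 0.083 to 0.22). Ctsa was at 108 and 94.7 CPM in the same order (-0.20), and Ctsb at 235 and 199.9 CPM (-0.24). Ctsd was at 612 and 590 CPM and Ctsz at 401 and 385 CPM, with log2 ratios of -0.053 and -0.058. Lamp1, singled out after its values were seen, was at 312 and 348 CPM (0.16, 0.11 to 0.20). Tfeb was at 30.2 and 28.0 CPM and Tfe3 at 17.0 and 16.3 CPM. The intervals of both factors crossed 0 (-0.26 to 0.035 and -0.25 to 0.14), so that of the MiT/TFE family Mitf alone lay below 0 beyond its counting error. Atp6v1g2 was at 2.17 and 2.14 CPM, with intervals that overlapped.

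**Figure D4:**
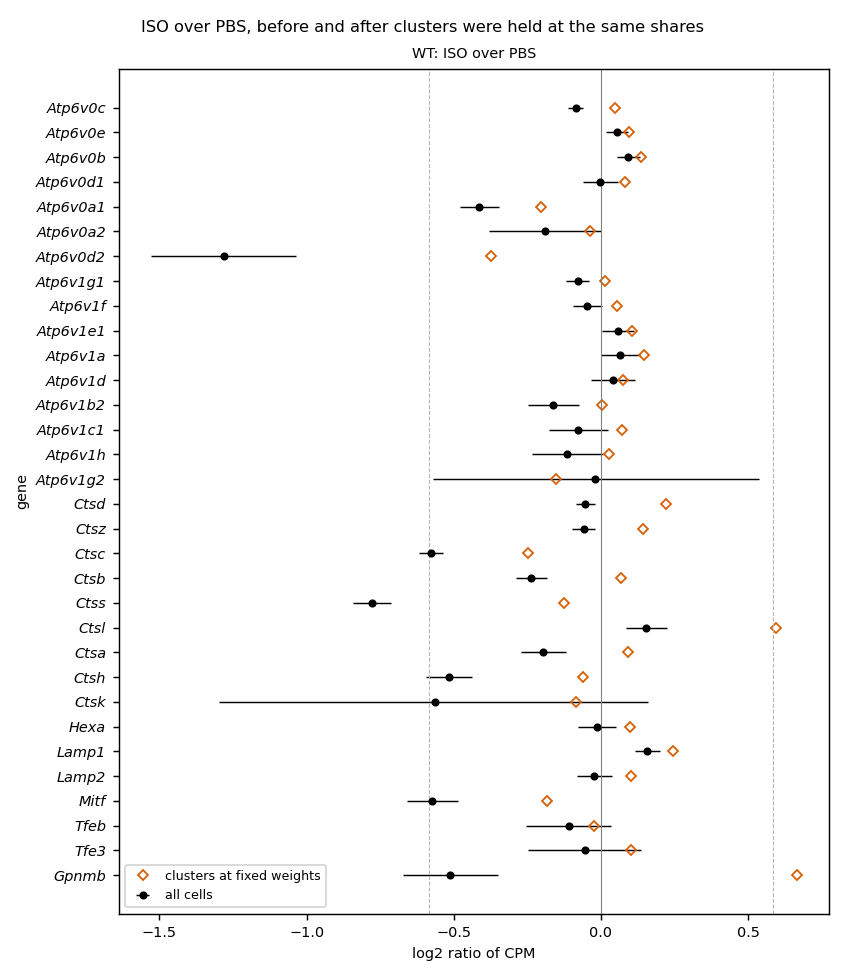
Log2 ratio of CPM, WT+ISO over WT+PBS, for 32 lysosome genes, over all cells (black points with exact 95% intervals for counting error) and with the clusters at fixed weights (open orange diamonds); dashed lines mark 1.5-fold. The diamonds lie to the right of most points, and Gpnmb moves from -0.51 to 0.67.

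At fixed cluster weights most ratios in WT moved upwards. The median of the 32 genes was 0.070, against 0.035 for all genes, and 22 of 32 lay above 0 (68.8%, against 58.1% of all genes). With coarser clusters (resolution 0.2) the fixed-weight median stayed below 0, at -0.023, against 0.013 for all genes. None was at least 1.5-fold lower (3.01% of all genes) and 2 were at least 1.5-fold higher (2.4% of all genes). These were Gpnmb (0.67) and Ctsl (0.60, just past the limit of 0.585). Gpnmb did not rise in every cluster. Its ratio was 2.54 in cluster 5, but -0.51 in cluster 1 and -1.76 in cluster 0 (14 UMIs without and 6 with ISO). In cluster 6 it went from 58.0 to 216 CPM, on 34 UMIs in a cluster of 37 cells without ISO and 47 UMIs in 15 cells with it. Its fixed-weight value was not read without its richest cell. Ctss went from -0.78 to -0.12, Atp6v0d2 from -1.28 to -0.37, Ctsh from -0.52 to -0.062, Mitf from -0.57 to -0.18 and Ctsc from -0.58 to -0.25. The summed cathepsins turned from -0.24 to 0.081 and the summed pump genes from -0.042 to 0.056. The cathepsins did not rise in every cluster. Their sum was above 0 in 4 of 6 clusters, but at -0.19 (-0.26 to -0.12) in cluster 0 and -0.085 (-0.11 to -0.057) in cluster 3. In cluster 3 Ctsc was at -0.44, Ctsh at -0.47 and Ctss at -0.37, while Ctsd (0.24) and Ctsl (0.20) were above 0. How much of the fall over all cells is a change of cell make-up and how much a change within cells cannot be told apart from 1 library a group.

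Within the macrophage-like cluster 5, 2 of 30 lysosome genes with at least 50 UMIs were at least 1.5-fold higher with ISO in WT and none lower, against 5.81% and 4.18% of 8430 genes. The count of higher genes was thus near the share of all genes. The 2 higher genes were Ctsl and Gpnmb. In this cluster Ctsl was at 222 CPM without and 469 CPM with ISO (log2 ratio 1.08, 0.94 to 1.21). Thinned to 2000 UMIs, 32.5% (26.6 to 38.9) of 237 cells and 56.2% (47.2 to 65.0) of 128 cells of the cluster held a Ctsl UMI in WT+PBS and WT+ISO. Unthinned, the shares were 84.5% and 94.6%, at medians of 15098 and 16914 UMIs a cell. In cluster 2 the thinned shares with Ctsl were 4.76% and 7.39%. A larger share of the cluster's cells thus held Ctsl with ISO, although the cluster itself had fewer cells. Gpnmb was at 21.2 CPM in WT+PBS and 123 CPM in WT+ISO in the same cluster (79 and 272 UMIs; 2.54, 2.17 to 2.92). A single cell of WT+ISO held 76 of the 272 UMIs, and without the richest cell of each library the ratio was 2.10 (1.72 to 2.50). That WT+ISO cell had 57285 UMIs over all genes, against the cluster's median of 16914 in this library. The shares of thinned cells with Gpnmb were 2.11% (0.688 to 4.85) without ISO and 9.38% (4.94 to 15.8) with it, and 7.98% and 28.7% unthinned. Ctsd (0.51, 0.43 to 0.58), Ctsb (0.44, 0.32 to 0.56) and Ctsz (0.37, 0.28 to 0.47) were above 0 in this cluster as well, while Ctss was at -0.10 (-0.20 to -0.0017) and Mitf at -0.13 (-0.30 to 0.035). The cluster held 238 WT cells without ISO and 129 with it, and whether it holds the same kinds of cell in both was not tested.

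Within cluster 1 none of 30 lysosome genes was past 1.5-fold with ISO in WT, against 3.27% of 6666 genes higher and 7.85% lower. Ctsl (0.57, 0.37 to 0.78) and Atp6v0d2 (-0.58, -0.89 to -0.28) came closest. Gpnmb was at 248 CPM in WT+PBS and 174 in WT+ISO (-0.51, -0.74 to -0.28), in CPM the opposite of its direction in cluster 5. The thinned shares of cluster 1 cells with Gpnmb were not lower with ISO, at 13.7% without and 15.4% with it, and their intervals overlapped. A single cluster 1 cell of WT+PBS held 46 of its UMIs, and the ratio in cluster 1 was not read without it. Ctsd was at 1434 and 1806 CPM (0.33, 0.25 to 0.41).

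Of 28 lysosome genes with at least 20 UMIs in every one of clusters 0 to 5, 5 were above 0 with ISO in WT in all 6 clusters (17.9%, against 7.28% of 7097 genes): Ctsl, Lamp1, Hexa, Atp6v0e and Atp6v1a. Lamp1 had ratios of 0.058 to 0.41, and its interval lay above 0 in each cluster but cluster 1. Ctsl had ratios of 0.13 to 1.08, with intervals across 0 in clusters 0 and 2. In the mature neutrophil-like cluster 4 it was also past 1.5-fold, at 0.64 (0.36 to 0.94), on 135 UMIs without and 366 with ISO. There the thinned shares of cells with Ctsl were 14.8% without and 28.7% with ISO. Hexa was at 0.0029 in cluster 0 (-0.23 to 0.23), and its interval lay above 0 in cluster 4 alone. The interval of Atp6v1a lay above 0 in clusters 3 and 5 alone, and that of Atp6v0e crossed 0 in clusters 4 and 5. The count of same signs thus includes values close to 0. In the other direction Atp6v0a1 was below 0 in all 6 clusters (-0.36 to -0.11), 1 of 28 genes (3.57%, against 5.28% of all genes). Its interval crossed 0 in cluster 2 (-0.30 to 0.075) and ended only just below 0 in clusters 0 and 5. Atp6v0a1 gave 69.8% (68.6 to 71.0) of the a-subunit UMIs in WT without ISO and 63.1% (61.9 to 64.4) with it, over all cells. Over the same cells Tcirg1 was at 52.3 and 55.7 CPM (0.089, -0.017 to 0.20), and cluster 2, where Tcirg1 has its largest share, went from 28.6% to 40.0% of UMIs. The part of this shift in the a-subunit shares was not tested.

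**Figure D5:**
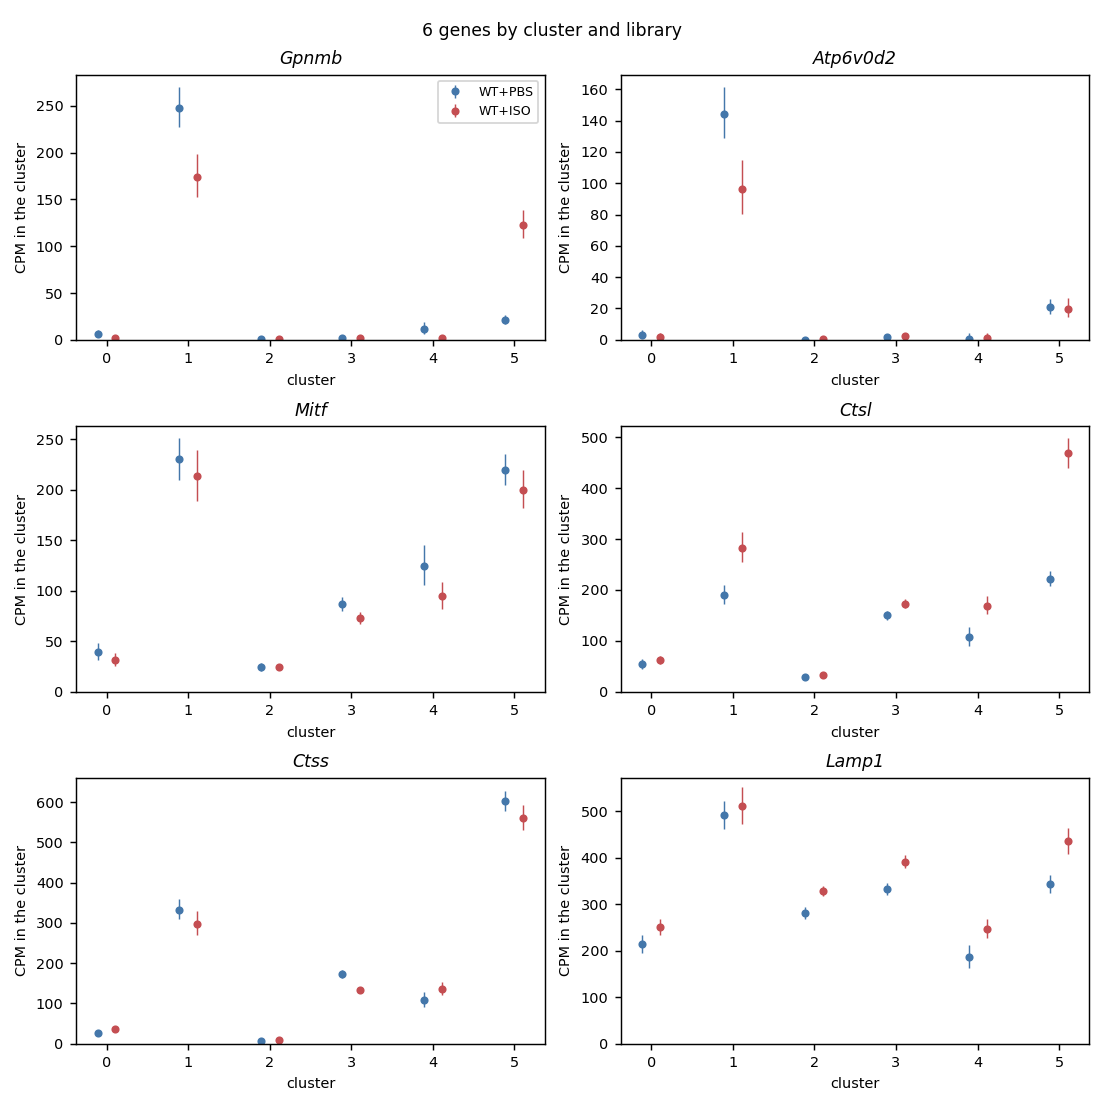
Level of Gpnmb, Atp6v0d2, Mitf, Ctsl, Ctss and Lamp1 in clusters 0 to 5, in CPM within the cluster, with 1 point a library and exact 95% Poisson intervals (counting error only). Gpnmb and Ctsl reach 123 and 469 CPM in cluster 5 of WT+ISO, against 21.2 and 222 CPM in WT+PBS. In cluster 1 the CPM of Gpnmb is lower with ISO, although its share of cells, not drawn here, is not.

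A list of 69 other lysosome genes, among them further hydrolases, the sorting receptors, the Ragulator and Rag proteins of mTORC1 docking and the granulin and saposin genes, was read in the same way. With ISO in WT, 67 reached 50 UMIs. Of these, 1 was at least 1.5-fold higher and 4 lower, near the shares of 1.66% and 6.82% among all 11852 genes. The median was -0.071, against -0.019 for all genes. Acp5, the tartrate-resistant acid phosphatase, was higher, at 3.16 CPM in WT+PBS and 4.76 in WT+ISO (0.59, 0.18 to 1.01). Cst3, the secreted cathepsin inhibitor cystatin C, was lower, at 1197 and 686 CPM (-0.80, -0.83 to -0.78). Psap, the saposin precursor, was lower at 1141 and 745 CPM (-0.61, -0.64 to -0.59), Lgmn, an asparaginyl protease, at 22.5 and 12.9 CPM (-0.80, -0.99 to -0.61), and Igf2r at 3.24 and 1.87 CPM (-0.79, -1.32 to -0.28). At fixed weights Slc11a1, a metal transporter of phagosomes, was higher (0.74) and none lower, against 2.4% and 3.01% of all genes. Cst3 was then at -0.33, Psap at -0.26 and Lgmn at 0.069.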

How the data were processed

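The deposited values are raw UMI counts for each gene in each cell, made by Cell Ranger (7.0.0 in the file headers, 6.0.0 in the submitters' processing notes, which also name Seurat and mm10). Suspensions carrying multiplexing tags were pooled before capture; the rule that assigned barcodes to samples is not given in the sources used here. Sample titles gave the groups, since the treatment field names isoproterenol for all 4 samples. The libraries of all 4 samples were clustered together, and the fixed cluster weights are means over them; 2 of these libraries and 1 gene of the choice by name are not reported here. The members and lists were chosen with earlier results of these data known.

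Cells were kept from 200 genes upwards and up to 10% of UMIs from mitochondrial genes. Scrublet called 17 of 9303 cells doublets (0.183%), too few to be taken as working, and they were kept. Counts were scaled to 10000 a cell and clustered with scanpy 1.11.5 and leidenalg 0.10.2 (2000 variable genes without the lysosome genes, 30 principal components, 15 neighbours, resolution 0.4, seed 0). A cluster was named from fixed marker lists. At least 3 markers of the list had to be found in at least 10% of its cells and at least 1 among its 10 leading genes. The mean log2 ratio of the list against all other cells had to be at least 1. Where several lists passed, that with the highest mean gave the name.

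UMIs were summed per library or cluster and compared as log2 ratios of CPM, without pseudocount, for genes with at least 50 UMIs in the pair. A gene was called past 1.5-fold. Ratios within a cluster needed at least 20 UMIs. No test was made, since each group had 1 library. The calculation of ratios and intervals was checked on simulated data. These were independent Poisson draws, as the intervals assume, without clumping of UMIs in cells or spread between cultures. The check therefore does not show that the intervals hold for these data. Genes given in both WT libraries were Gpnmb, Mitf, Tfeb, Tfe3, those past 1.5-fold with at least 100 UMIs, and those with a range of at least 4-fold between clusters over all 4 libraries. Other genes named with values, such as Ctsb, Lamp1, Slc11a1 and Igf2r, were picked after their values were seen. Alternatives were other cell filters, called doublets left out, other scalings, fixed cluster weights, equal weight per cell and other UMI minimums. Sequences were read from RefSeq promoters, of which 37 of 40 windows matched an annotated transcript in the sense direction and 0 in the antisense direction.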

Additional observations from a re-analysis of the deposited data

Results flagged for a closer look

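The 12 multiplexing tags, which no comparison here used, carried signal in both WT libraries. CMO301 held 95.4% of the tag UMIs in WT+PBS and CMO302 97.1% in WT+ISO. These tags led in 2232 of 2232 and 2300 of 2300 cells. If barcodes were assigned to samples by tag, a single leading tag in each library follows from the assignment and is no separate result.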

How the results depend on the processing

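No paired analysis was possible because there was a single library in every group. Of the 17 ratios of named genes and sums, 0 moved beyond their counting interval under the other cell filters or without called doublets, 3 with median-of-ratios size factors, 5 without the 20 most abundant genes, 8 with equal weight per cell and 13 at fixed cluster weights. Of those whose interval lay off 0, 6 changed sign at fixed weights (Ctsa, Ctsd, Ctsz, Gpnmb and both sums) and 1 without the abundant genes (the summed pump). The called doublets were 4 cells in each WT library. The cell filters left 2148 to 2232 cells in WT+PBS and 2192 to 2300 in WT+ISO. These settings changed few cells, so that their 0 moved ratios say little. Gpnmb, Ctsk and Atp6v0d2 rest on few cells or few UMIs.

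The median of -0.078 over the lysosome genes became 0.070 at fixed weights and 0.066 at fixed weights with resolution 0.8, but stayed below 0, at -0.023, with resolution 0.2 (0.013 for all genes). The 2 genes lower became 0 and the 0 higher became 2 at fixed weights, and 5 were lower with the stricter cell filter (at least 500 genes, at most 5% mitochondrial UMIs) and with equal weight per cell. The cause was not tested. Leaving out the cell richest in the gene, an alternative added after the data were seen, moved 1 of 3 ratios of Gpnmb and Atp6v0d2 beyond its interval, that of Gpnmb in cluster 5, from 2.54 to 2.10.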
